A study of Danio rerio with 2 samples.

Results

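Introns with many assigned reads relative to their gene, in polyadenylated RNA of wildtype zebrafish larvae, were taken from a table of intronic reads. They are called highly retained introns here, a name that stands for the reads assigned to them. Each was selected on measured values of the wildtype library: an intron listed under 1 Refseq gene ID, at least 20 wildtype reads, a wildtype gene value of at least 1, and a retention coefficient of at least 0.5. The retention coefficient is the read density of the intron divided by the value of its gene in the same library. The unit of the gene value is not named in the sources used here. A coefficient of 1 means an intron covered as densely as the gene only if both values are on the same scale. The density is given as RPuKM, which is reads per kilobase of unique intron length, scaled to library size. In all, 850 introns in 721 gene IDs met the rule, among 11031 eligible introns that met every condition except the coefficient (7.71%, exact binomial 95% interval 7.21 to 8.22%) and among 55660 listed introns. Since the wildtype coefficient chose the introns, wildtype levels and the ratio between the libraries are given below as descriptions, with no test.

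The study asked how intron retention and gene expression differ in a zebrafish mutant with defective U12-type splicing. One library was made from homozygous clbns841 larvae and 1 from homozygous wildtype larvae, both whole larvae at 108 hours post-fertilization. Both groups were reared at 28.5°C, were kept in 0.003% 1-phenyl-2-thiourea (PTU, which blocks pigment) from 24 hours, and were pooled from about 60 larvae genotyped one by one. RNA was selected for poly(A) tails in successive rounds, fragmented with RNase III and made into SOLiD libraries with 18 cycles of amplification. With 1 pooled library per genotype there is no replicate, and no difference between the genotypes can be tested. Intervals on the ratio of a single intron cover the counting error of its reads only. Intervals on shares and medians treat introns as independent draws, although some introns share a gene. They cover neither the counting error of reads nor variation between libraries of a genotype. Reads amplified without molecular identifiers are not independent molecules.

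An intron is removed from a transcript by the spliceosome, which recognises the splice sites at its ends and the branch site near its 3′ end. Most introns are removed by the major, U2-dependent spliceosome, and a small class is removed by the minor, U12-dependent spliceosome. The clbn (caliban) locus carries rnpc3, which encodes a protein of the minor spliceosome that binds U11 and U12 particles. An intron kept in polyadenylated RNA can hold the transcript in the nucleus, mark it for decay or change the encoded protein. Genes for splicing factors are known for such introns, through which they limit their own level. Which introns are of the U12 type is not marked in the columns used here.

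The mutant library held 25718058 reads and the wildtype library 28309779, and introns under 1 gene ID took 6.73% and 6.65% of them. The gene value of rnpc3 was 2.50 in the mutant library and 5.70 in the wildtype library, and none of its introns was among the 850. Muscle, liver and neural genes were present in both libraries, with gene values of 4479 and 4615 for mylpfa, 342 and 328 for fabp10a, and 84.7 and 83.9 for elavl3 in mutant and wildtype larvae. Exocrine pancreas and lens genes were lower in the mutant library: prss1 had 854 in mutant and 2618 in wildtype larvae, and crybb1 had 331 and 802. In a whole larva, fewer cells of a type and less RNA per cell cannot be told apart. Host genes of the highly retained introns had a median log2 difference, mutant over wildtype, of 0.05, against 0.02 for the genes of the other eligible introns.

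Most highly retained introns were very short. Their median length was 104 bp (order-statistic 95% interval 100 to 110 bp), with quartiles of 85 and 294 bp, while the 10181 other eligible introns had a median of 2577 bp. At most 100 bp long were 402 of them (47.3%, against 6.83% of the other eligible introns), and at most 150 bp 546 (64.2%, against 10.5%). A minority was long: 111 exceeded 1000 bp (13.1%, against 72.7%) and 25 exceeded 5000 bp. Highly retained introns made up 55.3% of the eligible introns of at most 75 bp (57 of 103) and 34.7% of those of 76 to 100 bp (345 of 994). The share was 27.6% at 101 to 150 bp, 15.8% at 151 to 300 bp, 7.62% at 301 to 1000 bp, 2.02% at 1001 to 5000 bp and 0.769% over 5000 bp. Length is not independent of the rule, because the minimum of 20 reads does not scale with length and a short intron needs a denser coverage to reach it. The minimum thus leaves few short introns eligible: as a share of all introns with a wildtype gene value of at least 1, whatever their reads, highly retained introns were 8.24% at up to 75 bp, 5.49% at 76 to 100 bp, 3.96% at 101 to 150 bp, 2.58% at 151 to 300 bp, 1.21% at 301 to 1000 bp, 0.349% at 1001 to 5000 bp and 0.395% over 5000 bp.

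**Figure D1:**
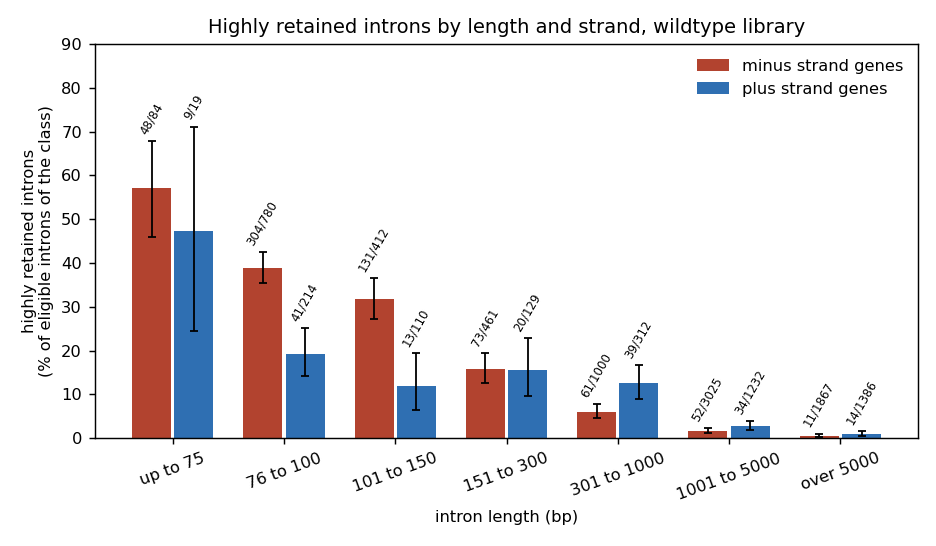
Share of eligible introns that are highly retained (y axis, %) in 7 classes of intron length (x axis, bp), for genes on the minus strand (red) and the plus strand (blue). Bars carry exact binomial 95% intervals and the counts of highly retained over eligible introns. The share is highest for introns of at most 75 bp and lowest over 5000 bp on both strands, and at 76 to 150 bp it is higher for minus strand genes.

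The strand of the gene moved with these shares. Of the 850 introns, 680 (80.0%) lay in genes on the minus strand of the assembly and 170 on the plus strand, while minus strand genes held 68.3% of the other eligible introns and 62.8% of all introns with a wildtype gene value of at least 1. At 76 to 100 bp, 39.0% of the eligible introns of minus strand genes were highly retained (304 of 780), against 19.2% for plus strand genes (41 of 214). At 101 to 150 bp the shares were 31.8% and 11.8%. The shares were close at 151 to 300 bp, with 15.8% for minus and 15.5% for plus strand genes, and had the other order at 301 to 1000 bp, with 6.10% for minus and 12.5% for plus strand genes at 301 to 1000 bp. Highly retained introns of plus strand genes were longer (median 323 bp) than those of minus strand genes (median 98 bp).

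The strand of the gene also moved with the intronic reads, relative to the gene value, over all introns with a wildtype gene value of at least 1. To compare introns of different length, the coefficient was multiplied by the unique length. If the gene value is on the scale of RPuKM, this gives the length of exon of the same gene that would hold as many reads. For minus strand genes this exon-equivalent length had medians of 21.0 bp in the mutant and 20.8 bp in the wildtype library at 76 to 100 bp, and of 24.4 and 23.4 bp at 301 to 1000 bp. For plus strand genes the medians were 7.07 and 6.83 bp at 76 to 100 bp, and 10.6 and 10.3 bp at 301 to 1000 bp. Between these classes the medians thus differed far less than the intron lengths, and they were higher in minus strand genes in both libraries. Over 5000 bp the strands were closer, with 89.8 bp in the mutant and 87.0 bp in the wildtype library in minus strand genes. The plus strand medians there were 88.4 and 77.7 bp. Highly retained introns of 76 to 100 bp had exon-equivalent lengths of 59.15 bp in the mutant and 69.6 bp in the wildtype library in minus strand genes, and of 52.4 and 63.2 bp in plus strand genes. In the other classes up to 1000 bp the order of the strands among the highly retained introns was the opposite of that over all introns. At 101 to 150 bp, for example, the medians were 70.1 bp in the mutant and 91.1 bp in the wildtype library in minus strand genes, and 118 and 123.1 bp in plus strand genes. At 301 to 1000 bp they were 257.1 and 303.9 bp in minus strand genes and 399.04 and 479 bp in plus strand genes. The wildtype coefficient that chose these introns enters their exon-equivalent lengths, so nothing is read from the order of the strands among them. Plus strand classes were also small: 9 introns at up to 75 bp, 13 at 101 to 150 bp and 20 at 151 to 300 bp. How reads that cross the edge of an intron were counted is not given in the sources used here, and its part in the strand and length shares was not tested.

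**Figure D2:**
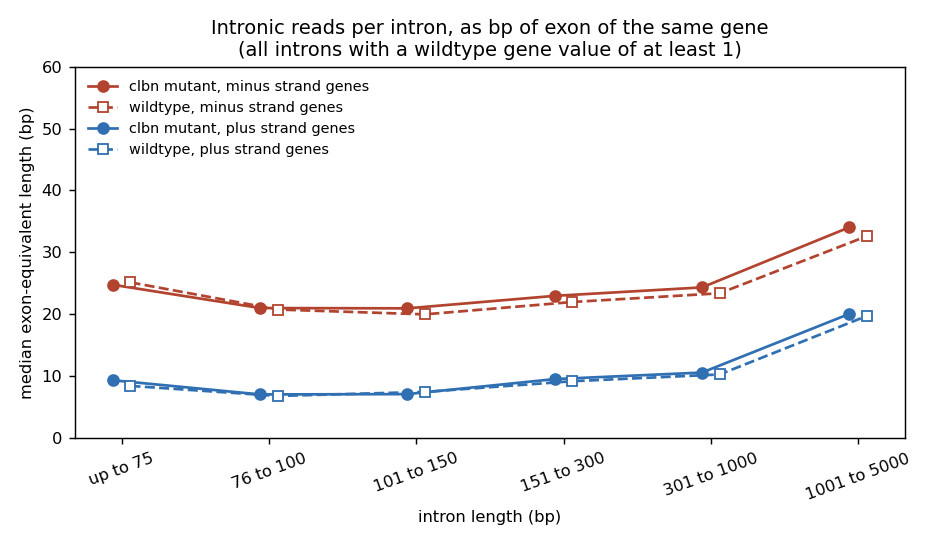
Median exon-equivalent length (y axis, bp) by intron length (x axis, bp), over all introns with a wildtype gene value of at least 1. It is the length of exon of the same gene that holds as many reads as the intron, if the gene value is on the scale of RPuKM. Filled circles are the clbn mutant library and open squares the wildtype library. Minus strand genes (red) lie above plus strand genes (blue) in every class drawn and in both libraries. The class over 5000 bp is not drawn.

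Highly retained introns lay toward the 3′ end of their genes. Among genes with at least 3 listed introns, 250 of 767 were the last listed intron along the gene's strand (32.6%, 29.3 to 36.04%), against 16.7% of 9340 other eligible introns. Only 24 (3.13%) were the first listed intron, against 16.8%. The first introns among the other eligible ones were long, with a median of 7085 bp against 127.5 bp for the 24. By length, the shares of first introns were 2.70% against 4.25% at up to 150 bp and 3.70% against 13.0% at 151 to 1000 bp. Over 1000 bp they were 4.60% against 19.7%. The part of length in the first-intron share was not tested. The excess of last introns grew with length: 110 of 518 introns of at most 150 bp were last (21.2%, against 12.9%), 80 of 162 of 151 to 1000 bp (49.4%, against 12.3%) and 60 of 87 over 1000 bp (69.0%, against 18.4%). It was present on both strands, with 72 of 128 last introns in plus strand genes (56.3%, against 18.4%) and 178 of 639 in minus strand genes (27.9%, against 16.0%).

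The share increased along the gene. In genes with at least 5 listed introns, split by listed order into 5 stretches of equal width from 5′ to 3′, the share of eligible introns of at most 150 bp that were highly retained was 22.4%, 27.3%, 27.3%, 35.6% and 42.6%. The median length of those eligible introns was 93 bp in the first stretch and 90 bp in each of the others. The spread of lengths around these medians was not compared. The part of length, strand and gene value in this increase was not tested. For introns over 150 bp the shares were 0.412%, 1.05%, 1.69%, 1.84% and 6.24%. Length did differ there, since the eligible introns over 150 bp had a median of 6524 bp in the first stretch and of 2265.5 to 2684.5 bp in the others. Both libraries came from RNA selected by its poly(A) tail, and coverage along the transcripts was not measured here. The order counts the introns in the table, which lists introns with at least 1 read in each library, so an intron absent from the table is not counted.

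**Figure D3:**
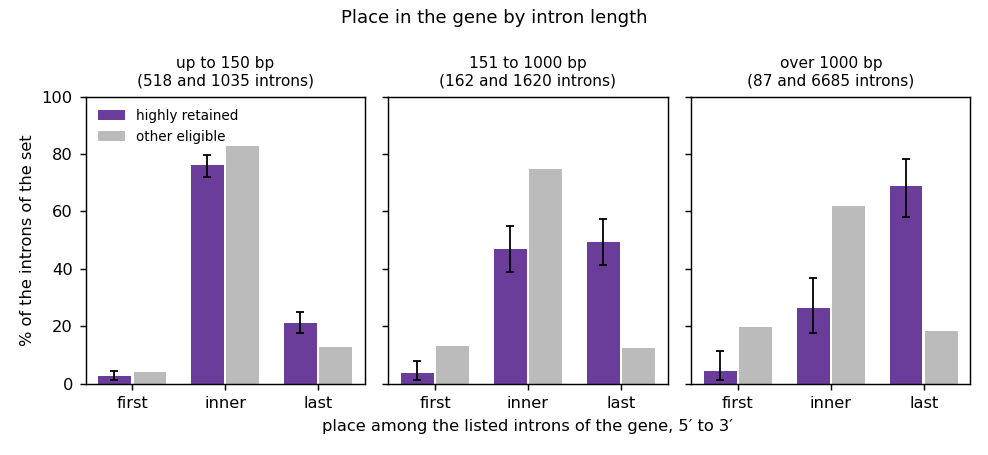
Place in the gene of highly retained introns (purple, with exact binomial 95% intervals) and other eligible introns (grey), as % of the introns of each set (y axis), among genes with at least 3 listed introns. Panels split the introns by length, and the share of last introns among the highly retained ones is 21.2%, 49.4% and 69.0% from the shortest to the longest class.

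Most host genes had only 1 such intron. In 624 genes 1 intron was highly retained, in 78 genes 2, in 13 genes 3, and in 6 genes 4 or more. For the 767 introns in genes with at least 3 listed introns, the other introns of the same gene had a median coefficient of 0.0385 in the mutant and 0.0355 in the wildtype library. A highly retained intron exceeded the median of its neighbours by a median of 18.8-fold in the mutant library, which did not choose it, and 25.0-fold in the wildtype library. The other introns were longer, with a median of 972 bp for the median length of the other introns of a gene. Coefficients were lower for longer introns in general: over all introns with a wildtype gene value of at least 1, the median was 0.189 in the mutant and 0.188 in the wildtype library at 76 to 100 bp, and 0.0362 and 0.0347 at 301 to 1000 bp. The part of length in these folds was not tested. In the mutant library 565 of the 767 (73.7%) had the highest coefficient of their gene. Only 1 intron of a gene can be the highest, and 226 highly retained introns lay in genes that held at least 2 of them. The 767 thus could not all be the highest, and the largest share possible was not computed. Among the 97 genes with at least 2 highly retained introns, 35 held a pair that were neighbours in the listed order. The number of such pairs depends on how many introns a gene has listed. That part was not computed, so nothing is read from the count.

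The 6 genes with the most such introns had between 16 and 58 listed introns each. prpf8, the central scaffold protein of the spliceosome, had 7 of 34 listed introns in the set, all between 75 and 122 bp, and introns 32, 33 and 34 in listed order were among them. Its last intron (Zv9 chr15:27598581-27598682, minus strand) had 123 reads in the mutant and 160 in the wildtype library, with coefficients of 2.25 and 3.30. dync1h1, the heavy chain of cytoplasmic dynein, also had 7, of 57 listed. Its shortest, of 67 bp (chr17:183624-183690), had 101 reads in the mutant and 123 in the wildtype library and coefficients of 4.38 and 4.79. Its longest, of 4251 bp, had 583 and 827 reads and coefficients of 0.870 and 1.11. col11a2, which encodes a fibrillar collagen of cartilage, had 5, of 58 listed, with coefficients of 0.289 to 1.47 in the mutant and 0.576 to 1.51 in the wildtype library. A further 3 genes had 4 each: fn1b (a fibronectin), rtf1 (a Paf1-complex factor of transcription elongation) and mccc2 (a subunit of an enzyme of leucine breakdown). All 4 mccc2 introns had between 22 and 46 reads in the mutant and between 34 and 61 in the wildtype library, and 2 of the 4 fell below 0.5 in the mutant library, at 0.371 and 0.381.

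A coefficient of at least 1 was reached by 334 of the introns in the wildtype library and a coefficient of at least 2 by 64. If the gene value is on the scale of RPuKM, a coefficient above 1 means an intron read more densely than its gene. Among introns with at least 100 wildtype reads, the highest coefficient belonged to klhl31, a Kelch-family gene of muscle, with 43.6 in the mutant and 25.8 in the wildtype library. That value rests on 243 and 188 reads divided by a unique length of only 4 bp in an intron of 214 bp (chr13:2128580-2128793, plus strand). paqr7b, a membrane progestin receptor, had 7068 reads in the mutant and 9248 in the wildtype library over its only listed intron of 8433 bp (chr16:37064471-37072903, plus strand), with coefficients of 11.7 and 15.7. Its intron overlaps 4 listed introns of other gene IDs on the same strand, and the gene value itself was 3.003 in the mutant and 2.66 in the wildtype library. tmem51a, a transmembrane protein gene, had 2925 and 2710 reads over the last of its 2 listed introns, of 4170 bp (chr8:27555403-27559572, minus strand), and coefficients of 10.6 in the mutant and 11.1 in the wildtype library. In ncapd2, a condensin subunit gene, intron 5 of 21 listed (397 bp, chr2:44832605-44833001, minus strand) had 450 and 515 reads and coefficients of 8.27 in the mutant and 9.29 in the wildtype library.

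The other introns of highest coefficient were short. bcam, a cell adhesion gene, had coefficients of 4.77 in the mutant and 4.31 in the wildtype library over 93 bp. riok2, a kinase of ribosome maturation, had 3.33 and 4.06 over 159 bp. For ndufa1, a subunit of respiratory complex I, the values were 3.30 and 3.71 over the only listed intron, of 89 bp. vamp3, a vesicle fusion protein gene, had 2.24 and 3.62 over 37 bp. In myhz1.2, a fast muscle myosin heavy chain, 2932 reads in the mutant and 2449 in the wildtype library gave 4.65 and 3.87, over a unique length of 25 bp. Myosin heavy chain genes are near-identical copies of each other, and how reads matching several places were counted is not given in the sources used here.

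By number of reads, 7 of the top 10 introns lay in genes with values above 300 in both libraries, and the other 3 in genes with values below 5. actc1b, a striated muscle actin, had 37309 reads in the mutant and 51626 in the wildtype library over 1 intron of 82 bp (intron 6 of 7 listed, chr17:759437-759518, minus strand), with coefficients of 1.80 and 2.34. The ratio of its coefficients, mutant over wildtype, was 0.770 with an exact counting interval of 0.760 to 0.781. rps29, a small-subunit ribosomal protein, followed with 13641 and 15179 reads over its last listed intron of 2683 bp and coefficients of 0.843 in the mutant and 0.910 in the wildtype library. mylpfa, a fast muscle regulatory light chain, had 9525 and 9584 reads over 74 bp and coefficients of 1.12 and 0.991. paqr7b, described above, came next with 7068 reads in the mutant and 9248 in the wildtype library at gene values of 3.003 and 2.66. Low gene values also belonged to a 63766 bp intron under NM_001045337, with 3910 and 4342 reads at gene values of 3.52 and 4.31. The 341427 bp intron under NM_001039925 had 3797 and 4082 reads at 1.63 and 1.43. Both overlap listed introns of other gene IDs on the same strand, 5 for NM_001045337 and 18 for NM_001039925. krt5, a skin keratin, had 5924 and 6317 reads over its last listed intron of 106 bp, and coefficients of 1.80 and 1.84. In ckma, muscle creatine kinase, 5052 and 5596 reads over the last listed intron gave nearly the same coefficient in both libraries, 0.782 in the mutant and 0.783 in the wildtype.

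Introns on either side of the threshold show how little separates the set from the rest there. Just inside were myod1, the muscle regulatory factor, with coefficients of 0.373 in the mutant and 0.501 in the wildtype library, tbl3 with 0.484 and 0.501, and capn2b with 0.258 and 0.502. Just outside were timm23a with 0.468 and 0.499, ttyh3b with 0.402 and 0.499, and spdl1 with 0.326 and 0.498. Of these 6 introns, 5 were between 84 and 287 bp long, and that of spdl1 spanned 101999 bp.

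Genes of RNA processing held several of the introns. Of the eligible introns in core spliceosome genes, 10 of 44 were highly retained (22.7%, against 7.71% of all eligible introns), 7 of them in prpf8. All 10 were at most 150 bp long, and 10 of the 12 eligible introns of that length in the list were in the set, against 33.7% among all eligible introns of at most 150 bp. snrpa, the U1 A protein, had 110 reads in the mutant and 84 in the wildtype library over its last listed intron of 104 bp, with coefficients of 1.85 and 1.84. u2af1, the small subunit of the factor that recognises 3′ splice sites, had 59 and 61 reads over intron 2 of 7 listed, with coefficients of 0.770 and 0.792. Among SR proteins and splicing kinases, 5 of 45 eligible introns were highly retained (11.1%), in srsf1a, srsf1b, srsf3a and srsf5a. srsf5a had the most reads of these, 1251 in the mutant and 1509 in the wildtype library, over an intron of 1102 bp (chr13:36934446-36935547, minus strand), with coefficients of 0.490 and 0.512. An intron of srsf1a, the last of 5 listed and 76 bp long, had 197 and 192 reads and coefficients of 1.21 in the mutant and 1.28 in the wildtype library. The hnRNP and other RNA-binding regulators had 12 of 170 (7.06%), close to the share among all eligible introns. hnrnpr had 1233 and 1462 reads over its last listed intron of 5231 bp with coefficients of 0.731 and 0.832, and celf1, which binds GU-rich RNA, had 951 and 1155 over its last of 3094 bp with 0.839 and 0.912.

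Further genes of RNA processing outside these lists were chosen after their values were seen. rsrp1, an arginine- and serine-rich protein gene, had 1961 reads in the mutant and 1161 in the wildtype library over an intron of 1615 bp (chr13:46090768-46092382, minus strand). Its gene value was also higher in the mutant library, 71.3 against 41.7, and the coefficients were 0.662 in the mutant and 0.608 in the wildtype library. snrnp200, the helicase that unwinds U4 and U6, had 3 introns of 83 to 90 bp in the set. Their coefficients were 0.618 to 0.893 in the mutant and 0.842 to 0.955 in the wildtype library. They rest on 18 to 24 reads in the mutant and 22 to 23 in the wildtype library, near the minimum of 20. The core spliceosome list, with 16 genes, did not hold snrnp200, so its share above is that of a partial list. pnisr had 2, of which the last listed, of 297 bp, had 149 reads in the mutant and 122 in the wildtype library and coefficients of 0.918 and 0.814.

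Ribosomal protein genes had 9 of 268 eligible introns in the set (3.36%, against 7.71% of all), in 9 genes. At up to 150 bp they had 6 of 53 (11.3%, against 33.7% of all). In the mutant library 8 of the 9 were at or above 0.5 too, against 661 of all 850 introns (77.8%). rpl29 had 3276 reads in the mutant and 4838 in the wildtype library over its last listed intron of 2478 bp, of which 512 bp were unique, with coefficients of 0.721 and 1.03. rpl3 had 3429 and 3899 reads over 94 bp with coefficients of 1.25 and 1.19, and rpl4 2195 and 3233 over 174 bp with 0.474 and 0.568. Translation factor genes had 9 of 198 (4.55%), all at most 150 bp long, out of 53 eligible of that length (17.0%). They were led by eif3s6ip with 260 and 388 reads and coefficients of 0.621 in the mutant and 0.865 in the wildtype library. Genes of snoRNA hosts and the nucleolus had 3 of 69 (4.35%), in nop56, fbl and nhp2. nop56, a protein of the particles that methylate ribosomal RNA, had 437 and 371 reads over 187 bp and coefficients of 1.74 in the mutant and 1.23 in the wildtype library.

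Sarcomere and muscle genes had 13 of 191 eligible introns in the set (6.81%, against 7.71% of all), with actc1b, mylpfa, ckma and myhz1.2 at the top. Of the 13, 12 were at most 150 bp long, out of 68 eligible of that length (17.6%, against 33.7% of all). This share, and those of digestive and lens genes at that length, depend on gene values through the read minimum. Nothing is read from them. Digestive and liver genes had 8 of 98 (8.16%), and 7 of 46 at up to 150 bp (15.2%). fabp10a, the liver fatty acid binding protein, had 448 reads in the mutant and 503 in the wildtype library over its last listed intron of 81 bp, with coefficients of 0.628 and 0.669. prss59.1, a trypsin gene, had 89 and 434 reads, a large difference in reads beside coefficients of 0.810 in the mutant and 1.07 in the wildtype library. Lens and eye genes had 6 of 89 (6.74%), of which 5 were in the gamma-crystallin genes of 1 cluster on chromosome 9. All 6 were at most 150 bp long, out of 38 eligible of that length (15.8%). crygm2d8 had 691 reads in the mutant and 1967 in the wildtype library and coefficients of 0.785 and 1.1, and crygm2d16 had 188 and 370 reads and coefficients of 1.1 and 0.817. These crystallin genes are close copies of each other, so reads may be split between them, and their values are uncertain.

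Extracellular matrix and adhesion genes had 27 of 325 eligible introns in the set (8.31%, against 7.71% of all eligible introns), and 26 of the 27 were at most 150 bp long. Those 26 were among 97 eligible introns of that length (26.8%, against 33.7% of all). The 27 lay in 12 genes, mostly fibrillar collagens, collagen IX and fibronectins, and all 12 were minus strand genes. In the mutant library 25 of the 27 stayed at or above 0.5, against 661 of all 850 introns (77.8%). Some lists kept all, such as 9 of 9 in zinc finger and other transcription factors and 5 of 5 in chaperones. Others kept fewer, such as 2 of 5 in chromatin regulators and 0 of 2 in homeobox genes. These counts are small, and nothing is read from their order. In col1a1b, which encodes a type I collagen chain of bone and skin, the neighbouring introns 22 and 23 of 49 listed had 338 and 521 reads in the mutant library and 325 and 401 in the wildtype library. Their coefficients were 0.582 and 0.735 in the mutant library, against 0.562 and 0.568 in the wildtype library.

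Small GTPases and their regulators had 17 of 145 eligible introns in the set (11.7%). This list also held effectors of GTPases, which are not regulators, among them cdc42bpb, cdc42se1 and rabep2. Their introns are counted in the share. Introns over 150 bp made up 11 of the 17, out of 136 eligible of that length (8.09%, against 3.23% of all eligible introns over 150 bp). rab8a, a GTPase of vesicle transport to the cell surface, had 352 reads in the mutant and 362 in the wildtype library over its last listed intron of 2338 bp, with coefficients of 1.16 and 1.39. The ubiquitin system had 22 of 234 (9.40%), led by rnf139, a ubiquitin ligase of the endoplasmic reticulum, with 317 and 409 reads over its last listed intron and coefficients of 1.5 and 1.85. Proteasome subunit genes held 11 of the 22, and psmd3 had 2 introns in the set, neighbours at the end of its listed order, with coefficients of 0.611 and 0.897 in the mutant and 0.882 and 1.02 in the wildtype library. Cytoskeleton and motor genes had 12 of 109 (11.0%), of which 7 were those of dync1h1.

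The remaining lists had shares below the 7.71% of all eligible introns, though not in each class of length. Kinase genes had 9 of 136 (6.62%), mitochondrial respiratory chain genes 9 of 164 (5.49%), chaperone genes 5 of 99 (5.05%) and zinc finger and other transcription factor genes 9 of 194 (4.64%). The last group included crebl2, a leucine-zipper factor related to CREB, with 937 reads in the mutant and 1303 in the wildtype library over its last listed intron of 1907 bp and coefficients of 0.851 and 1.02. Chromatin regulators had 5 of 113 (4.42%), ion channels 5 of 124 (4.03%) and solute carriers 6 of 181 (3.31%). scn1bb, a sodium channel beta subunit, had 1021 and 1121 reads over its last listed intron of 1744 bp, with coefficients of 0.961 in the mutant and 1.08 in the wildtype library. Among eligible introns of at most 150 bp, of which 33.7% were highly retained in all, kinase genes had 5 of 11, transcription factor genes 5 of 6, chromatin regulators 4 of 9 and ion channels 3 of 5, while respiratory chain genes had 8 of 36, chaperone genes 4 of 28 and solute carriers 1 of 19. These shares too depend on gene values through the read minimum, so nothing is read from them. These short ion channel introns lay in trpv6 and ryr1b only, and those of ryr1b were also counted in the sarcomere and muscle list. Homeobox genes had 2 of 77 (2.60%) and synaptic and neuronal genes 2 of 110 (1.82%). None of 30 eligible introns of selenoprotein and polyamine enzyme genes was highly retained, which allows a share of up to 10.0% when a count of 0 is taken to allow 3. Lists covered 203 of the 850 introns (23.9%), and most of the set lay in genes of no list.

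**Figure D4:**
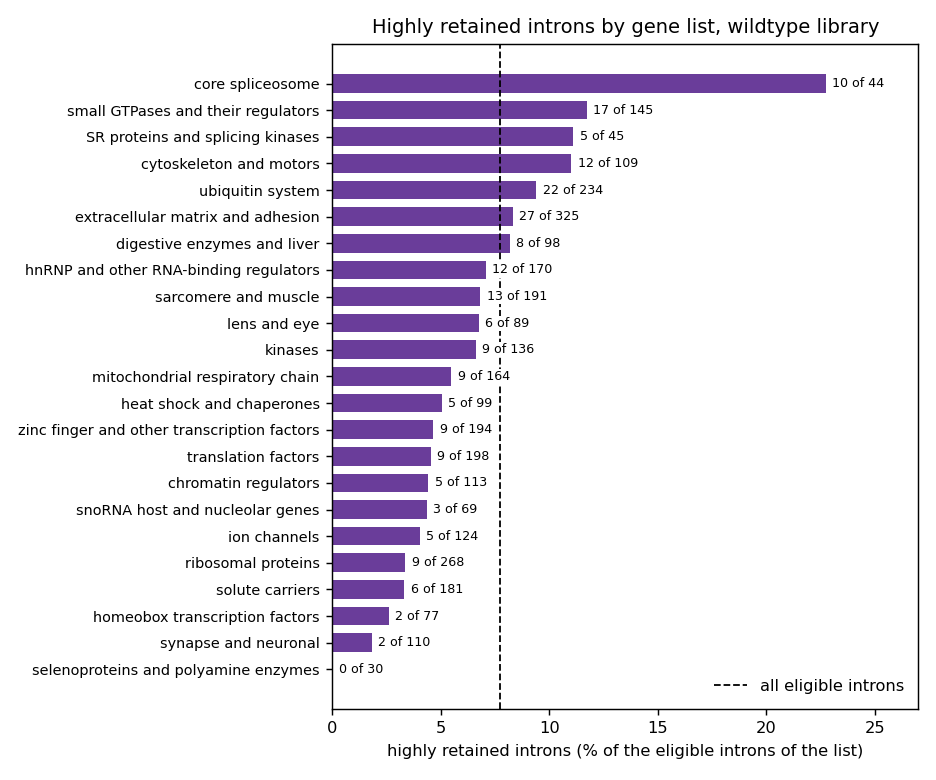
Highly retained introns as % of the eligible introns (x axis) of each of 23 gene lists, with counts beside the bars; the dashed line is the 7.71% of all eligible introns. Core spliceosome genes stand at 22.7%, with 7 of their 10 introns in prpf8, and ribosomal protein genes at 3.36%. The shares pool both strands and all lengths. The part of strand, length and gene value in them was not tested.

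Most of the introns were still highly retained in the mutant library. Of the 850, 661 had a mutant coefficient of at least 0.5 (77.8%, 74.8 to 80.5%), against 84 of the 10181 other eligible introns (0.825%). The rule split these sets at a wildtype coefficient of 0.5, so nothing is read from the contrast between them. The median coefficient was 0.741 in the mutant and 0.865 in the wildtype library. The median log2 ratio, mutant over wildtype, was -0.22, against -0.05 for the other eligible introns. For the highly retained introns its order-statistic 95% interval over introns was -0.26 to -0.18, which does not cover variation between libraries. Across the 850 introns the log2 coefficients of the libraries had a Pearson r of 0.787 and a Spearman rho of 0.754, and each pair of values shares the intron's length and its unique length. The exact counting interval of the ratio lay below 1 for 199 introns, above 1 for 46, and held 1 for 605. No such counts over all eligible introns are given here, and a high wildtype coefficient chose these introns. Nothing is read from the imbalance.

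The share kept in the mutant library differed between classes of wildtype reads. With 20 to 49 wildtype reads 67.0% of 424 introns stayed at or above 0.5 in the mutant library, with 50 to 199 reads 86.7% of 270, and with at least 200 reads 91.7% of 156. The median log2 ratios of these classes, mutant over wildtype, were -0.38, -0.17 and -0.11, against -0.13, -0.03 and 0.01 for all eligible introns of the same classes. The classes are set on the wildtype reads that the rule also used, so nothing is read from their order. The distance from the threshold moved with it as well: 55.4% of introns with a wildtype coefficient of 0.5 to 0.75 were kept, and 98.4% of those with at least 2. When the same rule was applied to the mutant library, it chose 796 of 10583 eligible introns (7.52%). Of those, 622 (78.1%) had a wildtype coefficient of at least 0.5, and their median log2 ratio, mutant over wildtype, was 0.06. The sign of the median therefore changed with the library that chose the introns. The rule held in both libraries for 577 introns, which are 72.5% of the mutant choice and 67.9% of the wildtype choice, and their median log2 ratio was -0.07.

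**Figure D5:**
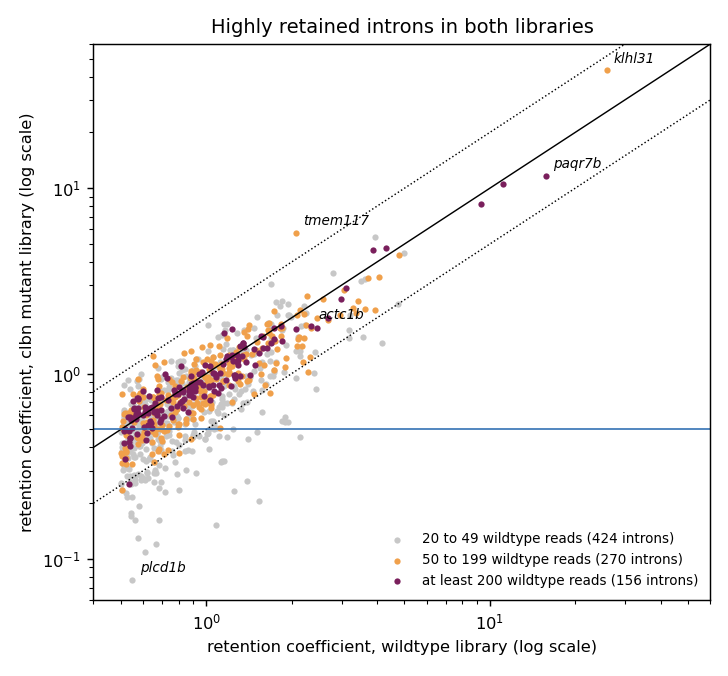
Retention coefficient of the 850 introns in the clbn mutant library (y axis, log scale) against the wildtype library (x axis, log scale), coloured by wildtype reads. The solid line marks equal values, the dotted lines a 2-fold difference and the blue line a mutant coefficient of 0.5. The log2 ratio, mutant over wildtype, had quartiles of -0.855 and 0.016 with 20 to 49 reads. With at least 200 reads they were -0.258 and 0.045. The rule also used the wildtype reads that set these classes, so nothing is read from their order.

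Large differences between the libraries were few. For 83 introns (9.76%) the mutant coefficient was lower by 2-fold or more, while 7.22% of all eligible introns were lower by as much. At least 2-fold higher in the mutant library was 1 intron (0.118%), while 1.78% of all eligible introns were that much higher. Nothing is read from these counts, because a high wildtype coefficient was the condition for entering the set. Of the 83 introns, 77 had 20 to 49 wildtype reads, and the counting interval lay below 1 for 67.

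Among introns with at least 50 wildtype reads, the lowest ratios belonged to hcfc1b, ssbp4, mccc2, trpv6 and helz, all with introns of 69 to 98 bp in minus strand genes. hcfc1b, a host cell factor gene of transcriptional control, had 27 reads in the mutant and 65 in the wildtype library over its last listed intron, coefficients of 1.02 and 2.28 and a ratio of 0.447 (0.274 to 0.710). trpv6, the epithelial calcium channel, had 19 and 71 reads and coefficients of 0.237 and 0.505, and its gene value was 35.5 in the mutant and 56.4 in the wildtype library. The 1 intron at least 2-fold higher was the first of 2 listed in tmem117, of 2902 bp. It had 116 reads in the mutant and 149 in the wildtype library, but a gene value of 0.309 in the mutant and 1.00 in the wildtype library, so that its coefficients were 5.77 and 2.07. Next in order was tmem244, with 176 reads in the mutant and 98 in the wildtype library over 1830 bp at gene values of 3.604 and 3.505, and coefficients of 1.25 and 0.651. csnk2a1, the catalytic subunit of casein kinase 2, had 95 and 53 reads over intron 7 of 14 listed and coefficients of 1.12 in the mutant and 0.659 in the wildtype library. nxnl2, a thioredoxin-like gene, had 120 and 87 reads and coefficients of 1.16 and 0.712.

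A mutant coefficient below 0.5 was found for 189 of the 850 introns. It was between 0.25 and 0.5 in 169 of them and below 0.25 in 20, and 111 of the 189 had fewer than 20 reads in the mutant library. The lowest was plcd1b, a phospholipase C gene named after its value was seen, with 1 read in the mutant and 22 in the wildtype library. Its coefficients were 0.0774 and 0.549, and the counting interval of the ratio ran from 0.00342 to 0.872.

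The shortest and longest introns were at the limits of the measurement. The shortest with a gene symbol were in rnaset2, a ribonuclease gene (31 bp, 18 reads in the mutant and 35 in the wildtype library, coefficients of 1.73 and 3.19), and in cst14b.1, a cystatin gene (34 bp, 35 and 30 reads, coefficients of 1.65 and 1.29). An intron of 31 bp under NM_001020786, which has no symbol here, had 18 and 25 reads. Of the 850 introns, 24 had a unique length under 50 bp. The longest of all spanned 341427 bp under NM_001039925, also without a symbol, and overlapped introns of other gene IDs, 18 on the same strand and 4 on the opposite one. It had 3797 reads in the mutant and 4082 in the wildtype library and coefficients of 0.600 and 0.670. The longest with a symbol was the first of 8 listed in pkn1b, a protein kinase gene, which spanned 172586 bp (chr3:6391328-6563913, minus strand) and had 3084 reads in the mutant and 3245 in the wildtype library. Its gene value was low, 0.844 in the mutant and 1.16 in the wildtype library, and the coefficients were 1.65 and 1.15. slc27a6, a fatty acid transporter gene, followed with 78969 bp, 1684 and 1957 reads and coefficients of 0.583 and 0.755. Its intron overlapped 3 introns of other gene IDs on the same strand. Of the introns over 1000 bp, 11 of 111 (9.91%) overlapped an intron listed for another gene ID, against 4.80% of the other eligible introns of that length, and 13 (11.7%) were the only listed intron of their gene, against 4.04%. Reads from a gene or exon inside such an intron were not separated from reads of the intron itself.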

How the data were processed

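Per the file headers, the deposited table gives for each intron its length, its unique length, the authors' counts of reads and the authors' RPuKM, an RPKM value per kilobase of unique length, in each library, and a gene value whose unit the header does not name. Library sizes were recovered from counts and RPuKM. Coordinates are Zv9, per the submitters' processing notes, and are printed 1-based; the sources used here name no aligner and no rule for reads with several matches or across intron edges. Another 8 columns of the authors' derived values were not used. Introns under several gene IDs (1121) and introns under 1 ID without a gene value (772) were outside the rule.

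The retention coefficient was RPuKM over gene value, without pseudocount. Symbols came from the RefSeq gene table of another assembly, for names only (10241 of 10715 IDs, 95.6%). No genome was used, so no sequence, splice site or coding position is given. Intervals (95%) are exact (Clopper-Pearson) for shares and ratios and order-statistic for medians, computed with Python 3.11.15, numpy 2.4.6, pandas 2.3.3 and scipy 1.17.1. Only the ratio intervals were tested on simulated reads, with gene values held fixed. The introns and the 23 gene lists were chosen with earlier results of these data known. Some symbols matched by prefix but of other function were removed from the lists after the table was read, while GTPase effectors stayed. Introns named in the text are the 10 of highest coefficient with at least 100 wildtype reads, the 10 with most reads, the 5 lowest and 5 highest ratios with at least 50 reads, the 3 on either side of the threshold, the 3 longest and shortest, genes with most such introns (5, and 6 through a tie at 4 introns), and up to 4 per list by reads. Alternatives are given in the closing section.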

Additional observations from a re-analysis of the deposited data

How the results depend on the processing

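Of 50 recomputed values, 21 stayed within their margin (1.5 times for counts, the interval for shares and medians). The set held 850 introns, and 1699 at a coefficient of 0.25, 334 at 1, 426 with at least 50 reads and 1352 with at least 10. The share kept in the mutant library was 77.8%, and 84.9% at a coefficient of 0.25, 65.0% at 1 and 88.5% with at least 50 reads. The median log2 ratio, mutant over wildtype, was -0.22, and -0.15 relative to the library total, -0.13 with at least 50 reads, -0.0688 for introns passing in both libraries and, reversed, 0.0648 for introns chosen in the mutant library. Introns at least 2-fold lower numbered 83, and 37 with a pseudocount of 5 reads; at least 2-fold higher were 1, and 4 relative to the library total. The median length of 104 bp became 159.5 bp with at least 50 reads and 114 bp at a coefficient of 0.25. The share that was first or last in listed order was 35.7%, and 28.9% in genes with at least 5 listed introns. This joint share merges opposite differences. First were 3.13%, against 16.8% of the other eligible introns, and last were 32.6%, against 16.7%. The difference in first introns was smaller at up to 150 bp, with 2.70% against 4.25%. Nothing is therefore read from the joint share, here or in the values below. Other choices were added after the data were seen. Plus strand genes alone gave 87.6% kept, a median log2 ratio of -0.13, a median length of 323 bp and 64.1% first or last, and minus strand genes a median length of 98 bp and 30.05% first or last. Introns over 300 bp gave 89.1% kept, -0.14 and 68.9%. The cause of these shifts was not tested. No paired analysis was possible because each genotype had 1 library. Depth limits the single introns: 424 of the 850 had fewer than 50 wildtype reads, and their ratios carry wide counting intervals.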
